A study of Monodelphis domestica with 18 samples.

Results

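The transcripts described here encode the enzymes, carriers and membrane proteins with which a cell takes up, activates and oxidises fatty acids in mitochondria and peroxisomes. They were chosen by gene symbol from a fixed list of 33 genes, and a gene was kept where its level exceeded 1 CPM (read counts scaled to the library total) in at least 6 of the 18 libraries. Of the list, 32 genes were found and passed, among 12840 genes that passed the same filter and 23899 with deposited counts. PEX11A, which codes for a peroxisome membrane protein, had no entry under that name and was not analysed here. A further entry named ETFA had counts near 0, failed the filter and was not used.

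The RNA came from opossum kidney (OK) cells, an established epithelial line with features of the kidney proximal tubule. The cells were grown on permeable supports in medium with serum, and one day after plating (0 h) some supports were moved to an orbital shaker at 146 rpm, which exposes the cells to orbital shear stress (OSS), while the others stayed in Static culture. OSS cultures were sampled at 12, 48 and 96 h and Static cultures at 0, 48 and 96 h. Each of these 6 conditions has 3 replicates, and each replicate is RNA combined from 3 experiments, so the spread between replicates is that of pools. All conditions share the line, the medium and the supports. No Static library was made at 12 h, so at that time the effect of OSS and that of 12 h more in culture cannot be told apart. The shaker changes both fluid shear and oxygen supply, and these cannot be told apart either.

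Proximal tubule cells draw most of their energy from fatty acids. A fatty acid is bound by a carrier protein in the cytosol, coupled to coenzyme A, passed into the mitochondrion on carnitine, and shortened in repeated cycles of dehydrogenation, hydration, dehydrogenation and thiolysis, with the electrons handed to the respiratory chain by electron transfer flavoproteins. Peroxisomes, which are abundant in this nephron segment, shorten very long and branched chains, and their proteins are brought in by peroxins. Many of these genes are targets of the fatty acid receptors of the PPAR family in rodents and in human liver cells.

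The 18 libraries held 40154553 to 79745362 counts, with a median of 61146700. The 32 genes had more than 1 CPM in all 18 libraries, and a single gene had between 398 (ACADS) and 70164 (ABCD3) counts in a library. Replicate 3 of OSS 12 h and replicate 3 of Static 0 h stood low for these genes: in OSS 12 h replicate 3, 3 of the 32 lay above the mean of their condition (median deviation -0.14 on the log2 scale), and in Static 0 h replicate 3, 1 did (median deviation -0.15). Of 12 markers of the proximal tubule, 10 passed the filter and SLC5A1 and AQP1 were near 0. Their summed level was 8633 to 10597 CPM at OSS 96 h, against 5851 to 6512 CPM at Static 96 h, mostly from LRP2 and CUBN. At that time 6 of the 10 were called higher, beside 25.5% of all tested genes. At 48 h the sums overlapped, at 8784 to 9781 CPM in OSS, against 6476 to 8984 CPM in Static culture. There 3 of the 10 were called higher, near the share of 23.5% over all tested genes. Summed levels of markers of other cells differed in both directions. The 4 markers of the loop and distal tubule summed to 26.6 to 38.8 CPM at OSS 96 h, against 3.96 to 6.09 CPM at Static 96 h, nearly all of it from SLC12A1, with UMOD, SLC12A3 and CALB1 near 0. The 3 collecting duct markers found summed to 30.0 to 49.6 CPM at OSS 96 h, against 10.9 to 15.3 CPM at Static 96 h, mostly from AQP3. They did not change together: 1 was called higher and 1 lower at 96 h, with log2 fold changes of -1.04 to 1.62. At 48 h 1 was likewise called higher and 1 lower. Of all tested genes 25.5% were called higher and 26.2% lower at 96 h, and 23.5% and 24.5% at 48 h. The 4 podocyte markers summed to 67.4 to 86.3 CPM at OSS 96 h, against 95.7 to 144 CPM at Static 96 h, with NPHS1 near 0. Of the 3 podocyte markers tested, 1 was called lower and none higher at either time. Their log2 fold changes at 96 h were -1.10 to 0.06. The 4 fibroblast markers summed to 37.0 to 43.3 CPM at OSS 96 h, against 76.2 to 78.8 CPM at Static 96 h, with DCN near 0. The 3 of them tested were called lower at both times. The 3 leukocyte markers overlapped, at 6.32 to 10.6 CPM at OSS 96 h and 6.24 to 7.54 CPM at Static 96 h, and the 3 endothelial markers summed to at most 3.08 CPM in any library. At 48 h the loop and distal tubule sums were 16.3 to 26.6 CPM in OSS, against 5.64 to 7.17 CPM in Static culture, and the collecting duct sums 37.9 to 44.2 CPM, against 14.3 to 19.2 CPM. The podocyte sums at 48 h were 66.0 to 78.4 CPM in OSS, against 113 to 185 CPM in Static culture, the fibroblast sums 37.4 to 46.5 CPM, against 80.2 to 119.6 CPM, and the leukocyte sums 8.14 to 9.19 CPM, against 5.64 to 8.37 CPM. The part of these marker levels in the results below was not tested, and in such bulk RNA a change in the share of cells that express a gene and a change in RNA per cell cannot be told apart.

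The summed level of the 32 transcripts was higher in OSS than in Static culture at 48 and 96 h. Their levels (CPM with TMM scaling) summed to 4981 ± 455 CPM at OSS 12 h, 7644 ± 289 CPM at OSS 48 h and 7204 ± 243 CPM at OSS 96 h (SD, n = 3 each). In Static culture the sums were 4730 ± 427, 5964 ± 291 and 5765 ± 71.2 CPM at 0, 48 and 96 h. The lowest sum at OSS 48 h, 7311 CPM, and the lowest at OSS 96 h, 6940 CPM, lay above the highest of any Static library, 6264 CPM. The highest mean of the 6 conditions was that of OSS 48 h for 21 genes and of OSS 96 h for 5. It was that of Static 48 h for 4 (ACADS, CRAT, ETFB and PEX5), of Static 0 h for CROT and of Static 96 h for ACADL. A highest mean in OSS does not by itself show a difference from Static culture. ACAA1, ACADM, ACADVL, ETFDH, HADHA and SCP2 were highest in OSS and passed the test below at neither time. The condition with the highest mean was not counted over all tested genes. The spread between the highest and lowest condition mean was 17.5-fold for FABP1, 3.82-fold for AMACR and 1.14-fold for HADHA, with the other 29 genes between.

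**Figure D1:**
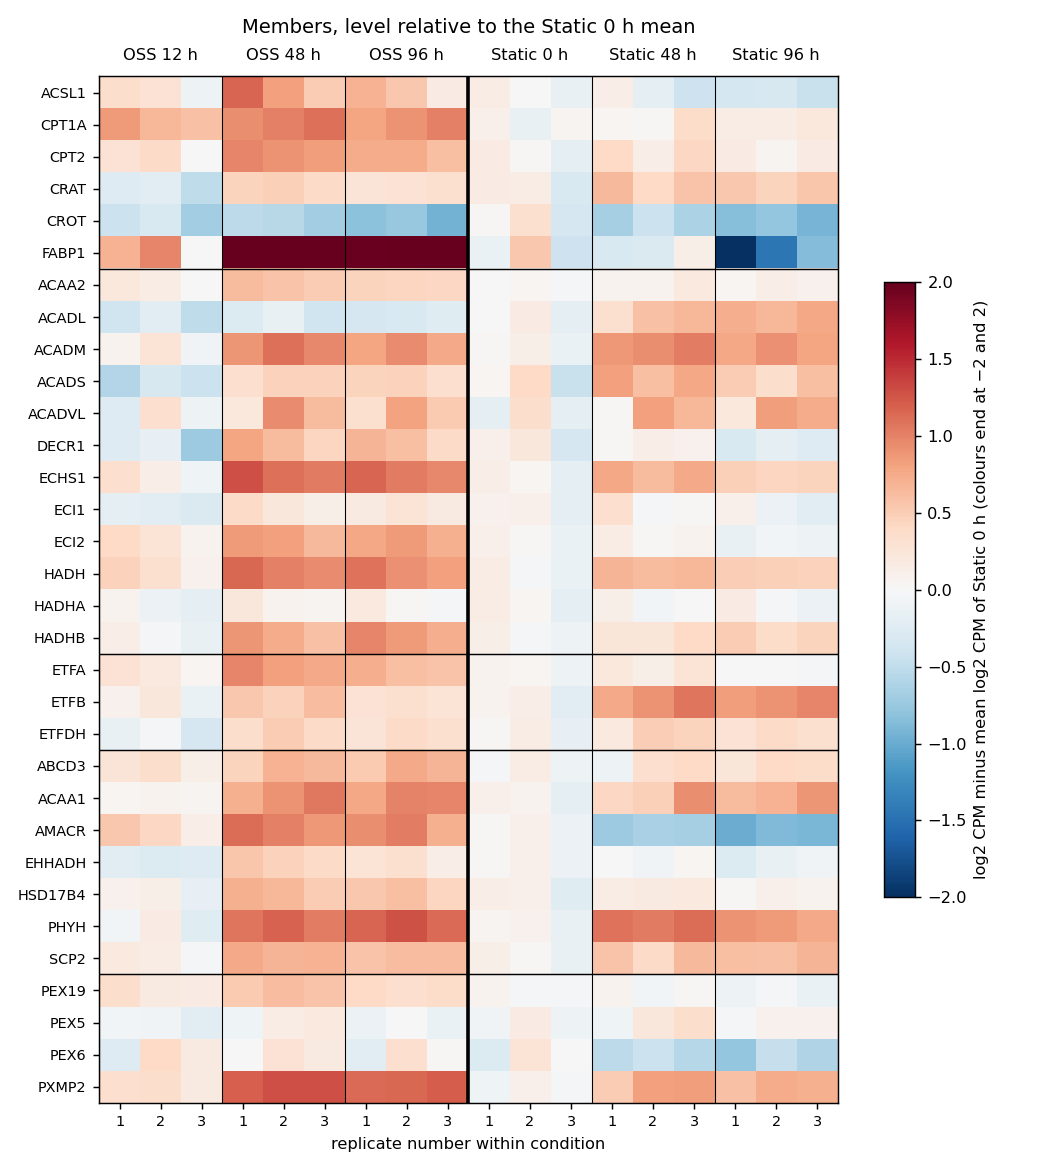
Level of each of the 32 genes (rows, grouped by role) in each of the 18 libraries (columns, 3 replicates per condition), as log2 CPM minus the mean log2 CPM of Static 0 h. Red is above and blue below that mean, and the colours end at -2 and 2. FABP1 is the darkest row at OSS 48 h and OSS 96 h, ACADL and AMACR are coloured in opposite directions in OSS and Static culture, and the columns of replicate 3 at OSS 12 h and Static 0 h are the bluest of their conditions.

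OSS was first compared with Static culture at the same time, to see which steps of fatty acid oxidation differ between the culture conditions. Genes were tested with edgeR's quasi-likelihood test, and a gene was called where its p, adjusted over all 12840 genes by the Benjamini-Hochberg method, was under 0.05. At 48 h, 18 of the 32 genes were higher in OSS and 2 were lower, whereas 23.5% of all tested genes were called higher and 24.5% lower. At 96 h, 20 were higher and 3 were lower, beside 25.5% and 26.2% of all tested genes. The median log2 fold change of the 32 genes was 0.40 at 48 h and 0.38 at 96 h, with medians over all tested genes of -0.03 and -0.00. All 18 genes called higher at 48 h were among the 20 called higher at 96 h, the others being ECI1 and PHYH, and ACADL and ETFB were called lower at both times, joined by CRAT at 96 h. Another 9 genes were called at neither time: ACAA1, ACADM, ACADS, ACADVL, CROT, ETFDH, HADHA, PEX5 and SCP2. With the replicate number as a block, ACAA1 was also called, at 48 h (adjusted p = 0.049) and at 96 h (adjusted p = 0.0253), and so was PEX5 at 96 h, lower in OSS (adjusted p = 0.0417).

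**Figure D2:**
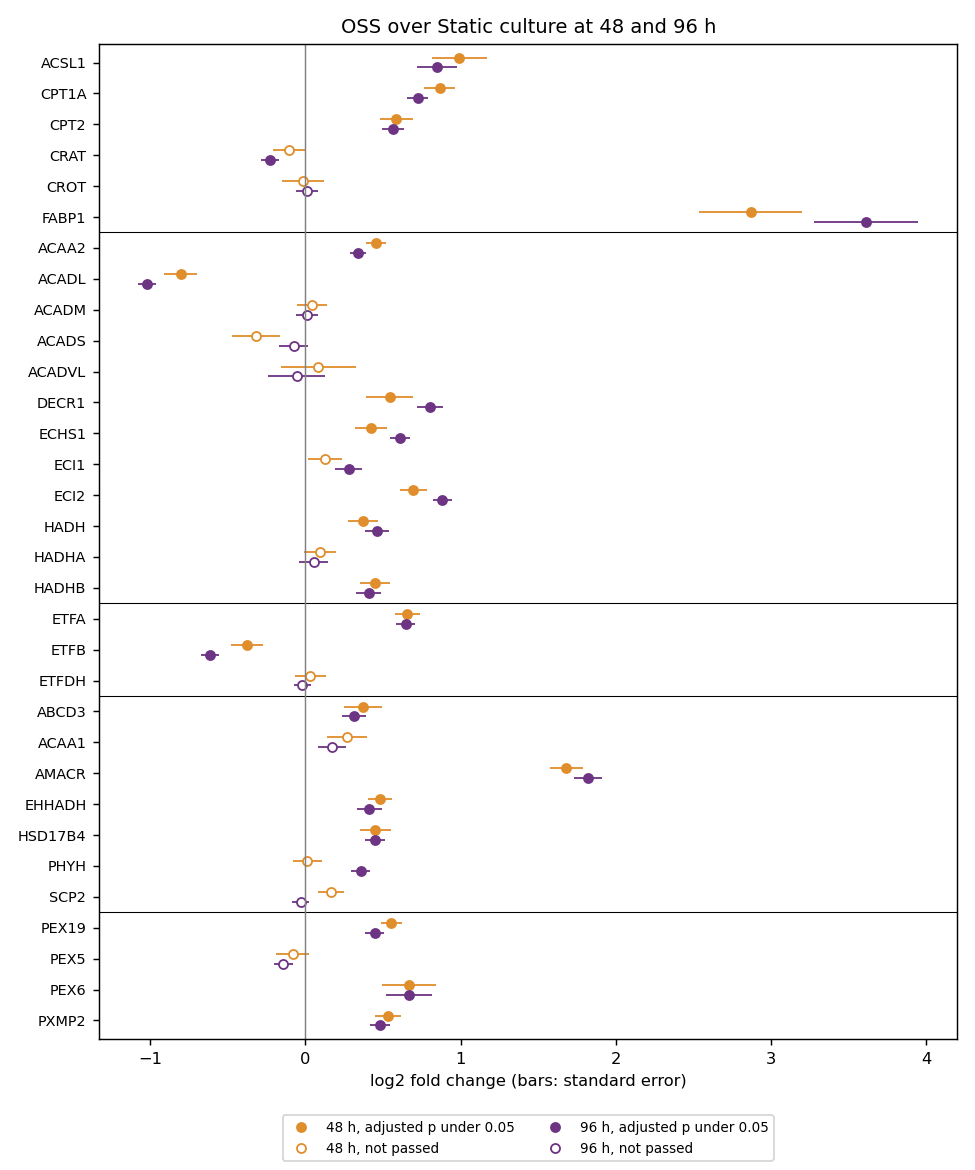
Log2 fold change of OSS over Static culture for each of the 32 genes at 48 h (orange) and 96 h (purple), with bars for the standard error. Filled points have an edgeR adjusted p under 0.05 and open points do not; genes are grouped by role, with lines between uptake and carnitine shuttle, mitochondrial oxidation, electron transfer, peroxisomal oxidation and peroxisome membrane. FABP1 lies farthest to the right at 2.87 and 3.61, and ACADL and ETFB lie left of 0 at both times.

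The steps that bring fatty acids to the mitochondrion held the gene that differed most. FABP1, the liver-type fatty acid-binding protein that is also made in the human proximal tubule, had 221, 269.5 and 286 CPM at OSS 96 h, against 11.7, 20.6 and 30.8 CPM at Static 96 h. At 48 h it had 427, 360.4 and 320.3 CPM in OSS, against 45.3, 45.7 and 60.6 CPM in Static culture. The lowest OSS library of either time lay far above the highest Static library. The log2 fold change was 3.61 ± 0.34 at 96 h (SE; edgeR adjusted p = 0.000196) and 2.87 ± 0.33 at 48 h (adjusted p = 8.23e-06). The replicates of OSS 96 h and of Static 96 h each had their lowest value in replicate 1.

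Activation and entry followed the same direction with smaller differences. ACSL1, which couples long-chain fatty acids to coenzyme A, had 356, 319 and 247 CPM at OSS 96 h, against 173, 177 and 161 CPM at Static 96 h, and 493, 387 and 315 CPM at OSS 48 h, against 241, 195 and 165 CPM at Static 48 h. The groups did not overlap at either time, and in OSS culture replicate 3 was the lowest each time. Its log2 fold change was 0.85 ± 0.13 at 96 h (edgeR adjusted p = 0.00159) and 0.99 ± 0.18 at 48 h (adjusted p = 0.000361). CPT1A, which makes acylcarnitine on the outer mitochondrial membrane and sets the rate of entry, had 254, 273 and 295 CPM at OSS 96 h, against 162, 164 and 169.7 CPM at Static 96 h. At 48 h the values were 280.1, 297 and 317 CPM in OSS, against 151, 150.1 and 189 CPM in Static culture. OSS libraries were thus all higher, by 0.72 ± 0.07 at 96 h (adjusted p = 0.000204) and 0.87 ± 0.10 at 48 h (adjusted p = 8.44e-06) on the log2 scale.

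The remaining carnitine acyltransferases did not move as one. CPT2, the inner membrane enzyme that returns the acyl group to coenzyme A, had 46.8 ± 2.68 CPM at OSS 96 h, against 31.6 ± 1.36 CPM at Static 96 h (SD, n = 3; log2 fold change 0.56 ± 0.07, edgeR adjusted p = 0.000669). CRAT, which transfers acetyl groups to carnitine, was lower in OSS at 96 h, with 174 ± 3.36 CPM, against 203 ± 8.78 CPM in Static culture (-0.23 ± 0.06 on the log2 scale, edgeR adjusted p = 0.0127), a call that was lost when all 18 libraries shared one fit (adjusted p = 0.0999). CROT, the peroxisomal enzyme for medium chains, had 44.1 ± 2.98 CPM in OSS, against 43.8 ± 2.25 CPM in Static culture at 96 h, and its groups overlapped.

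**Figure D3:**
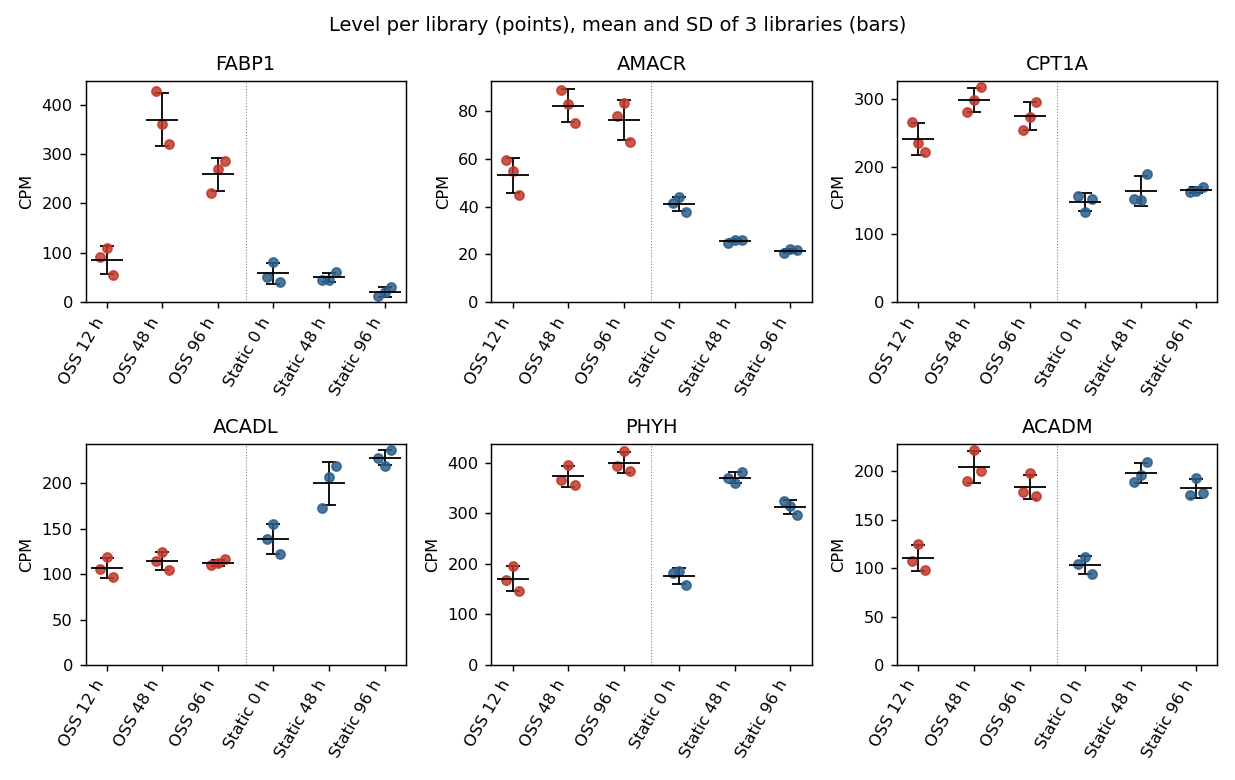
Level in CPM (y axis, from 0) of FABP1, AMACR, CPT1A, ACADL, PHYH and ACADM in each library (points; red OSS, blue Static), with the mean and SD of the 3 replicates (black). FABP1, AMACR and CPT1A are higher in every OSS library at 48 and 96 h than in any Static library of the same time, ACADL is lower, and ACADM overlaps between the culture conditions.

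Of 12 mitochondrial beta-oxidation genes, 6 were higher and 1 was lower in OSS at 48 h, and 7 were higher and 1 was lower at 96 h, beside 23.5% higher and 24.5% lower of all tested genes at 48 h and 25.5% and 26.2% at 96 h. None of the 4 acyl-CoA dehydrogenases, which open each cycle and are named for chain length, was called higher in OSS at either time, and ACADL was called lower. ACADM, the medium-chain enzyme, had 178, 198 and 175 CPM at OSS 96 h, against 176, 194 and 178 CPM at Static 96 h, with overlapping groups and a log2 fold change of 0.01 ± 0.07. ACADL, the long-chain enzyme, had 109.9, 112 and 116 CPM at OSS 96 h, against 229, 219.7 and 237 CPM at Static 96 h. At 48 h its values were 114, 125 and 105 CPM in OSS, against 173, 207 and 219.7 CPM in Static culture. ACADL was therefore lower in every OSS library, by a log2 fold change of -1.02 ± 0.06 at 96 h (edgeR adjusted p = 3.48e-05) and -0.80 ± 0.10 at 48 h (adjusted p = 2.26e-05). ACADVL, for very long chains, ranged from 272 to 379 CPM at OSS 96 h and 251 to 385 CPM at Static 96 h, with replicate 1 lowest in both. ACADS, for short chains, held the lowest single count of the 32 genes and had 15.2 ± 0.684 CPM at OSS 96 h and 15.9 ± 1.43 CPM at Static 96 h, and was not called at either time.

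ECHS1, ECI1, ECI2 and DECR1, a hydratase, isomerases and a reductase, were higher in OSS at 96 h. ECI2, an isomerase for unsaturated chains that is also found in peroxisomes, had 71.9, 75.8 and 68.8 CPM at OSS 96 h, against 37.8, 40.4 and 39.1 CPM at Static 96 h, and 76.1, 73.8 and 65.6 CPM at OSS 48 h, against 46.4, 42.6 and 44.2 CPM at Static 48 h. No OSS library reached down to a Static one, and the log2 fold change was 0.88 ± 0.06 at 96 h (edgeR adjusted p = 6.61e-05) and 0.69 ± 0.09 at 48 h (adjusted p = 1.65e-05). DECR1, the reductase for polyunsaturated chains, had 132, 124 and 107 CPM at OSS 96 h, against 66.5, 72.8 and 68.5 CPM at Static 96 h, with a log2 fold change of 0.80 ± 0.09 (edgeR adjusted p = 0.000352). At 48 h DECR1 had 143, 127 and 111 CPM in OSS, against 83.7, 90.6 and 87.2 CPM in Static culture (0.54 ± 0.15 on the log2 scale, edgeR adjusted p = 0.00793). ECHS1, the short-chain enoyl-CoA hydratase, had 216, 198 and 189 CPM at OSS 96 h, against 134, 129.5 and 131 CPM at Static 96 h (0.61 ± 0.07, edgeR adjusted p = 0.000383). At 48 h it had 236, 207 and 199 CPM in OSS, against 165, 149.8 and 163 CPM in Static culture (0.42 ± 0.10, edgeR adjusted p = 0.00358). Both genes were higher in every OSS library than in any Static library of the same time. The isomerase ECI1 passed at 96 h alone, at 0.28 ± 0.09 (edgeR adjusted p = 0.0284), and lost the call when any of 4 libraries (replicate 2 or 3 of either condition) was left out, with adjusted p up to 0.0937.

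Genes of the closing steps of the cycle were also higher. HADH, the short-chain hydroxyacyl-CoA dehydrogenase, had 725 ± 67.1 CPM at OSS 96 h, against 525 ± 5.26 CPM at Static 96 h (SD, n = 3; log2 fold change 0.46 ± 0.08, edgeR adjusted p = 0.00235). ACAA2, the mitochondrial thiolase, had 169.8 ± 2.51 CPM, against 134 ± 4.23 CPM in Static culture (0.34 ± 0.05 on the log2 scale, edgeR adjusted p = 0.00157).

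The subunits of the trifunctional protein, which carries out these steps on long chains, gave different calls. HADHA, the alpha subunit, had 652, 579 and 563 CPM at OSS 96 h, against 640.1, 561 and 525 CPM at Static 96 h, and 666, 598 and 596 CPM at OSS 48 h, against 618, 549 and 575 CPM at Static 48 h. Its groups overlapped at both times, with replicate 1 the highest in each, and the log2 fold change was 0.05 ± 0.09 at 96 h and 0.09 ± 0.10 at 48 h. Between libraries of equal number HADHA was higher in OSS in 3 of 3 pairs at both times, and a fit blocked on that number did not call it either (adjusted p = 0.318 at 96 h and 0.181 at 48 h). HADHB, the beta subunit, had 705, 646 and 594 CPM at OSS 96 h, against 513, 462 and 489 CPM at Static 96 h, and was higher in OSS by a log2 fold change of 0.41 ± 0.08 (edgeR adjusted p = 0.00502). At 48 h it was higher in OSS by a log2 fold change of 0.45 ± 0.10 (edgeR adjusted p = 0.00134). The genes are next to each other, with no protein-coding gene between them, in the RefSeq annotation of the Monodelphis domestica assembly mMonDom1. Their order in the genome of the OK cells was not examined. The ratio of HADHB to HADHA counts within a library was 1.06 to 1.12 at OSS 96 h, against 0.801 to 0.931 at Static 96 h, and 0.907 to 1.01 at OSS 48 h, against 0.690 to 0.821 at Static 48 h. It was 0.647 to 0.668 at OSS 12 h and 0.600 to 0.671 at Static 0 h.

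Electron transfer flavoprotein, the acceptor of electrons from the acyl-CoA dehydrogenases, is a dimer of the products of ETFA and ETFB. The differences between OSS and Static culture had opposite signs for these transcripts. ETFA had 286, 262 and 257 CPM at OSS 96 h, against 172, 171 and 169 CPM at Static 96 h, and 341, 304 and 292 CPM at OSS 48 h, against 199, 187 and 209 CPM at Static 48 h. All OSS libraries were higher, with a log2 fold change of 0.65 ± 0.06 at 96 h (edgeR adjusted p = 0.000209) and 0.66 ± 0.08 at 48 h (adjusted p = 1.31e-05). ETFB had 94.6, 96.9 and 93.9 CPM at OSS 96 h, against 139, 145 and 152 CPM at Static 96 h, and 112, 106 and 119 CPM at OSS 48 h, against 131, 144 and 162 CPM at Static 48 h. All OSS libraries were lower, with a log2 fold change of -0.61 ± 0.06 at 96 h (edgeR adjusted p = 0.000199) and -0.37 ± 0.10 at 48 h (adjusted p = 0.00772). ETFDH, which passes the electrons on to ubiquinone, had a log2 fold change of -0.02 ± 0.06 at 96 h and 0.03 ± 0.10 at 48 h and was not called.

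Within a library the ratio of ETFA to ETFB counts was 2.70 to 3.02 at OSS 96 h, against 1.11 to 1.24 at Static 96 h, and 2.46 to 3.03 at OSS 48 h, against 1.29 to 1.52 at Static 48 h. It was 2.17 to 2.57 at OSS 12 h and 2.09 to 2.39 at Static 0 h. The ratios of Static 48 h and Static 96 h thus lay below those of Static 0 h, while those of OSS 48 h overlapped those of OSS 12 h and those of OSS 96 h lay above them. These subunit ratios were chosen after the levels had been seen and were not tested; since the genes differ in length, they are read between conditions and not as the proportion of transcripts.

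**Figure D4:**
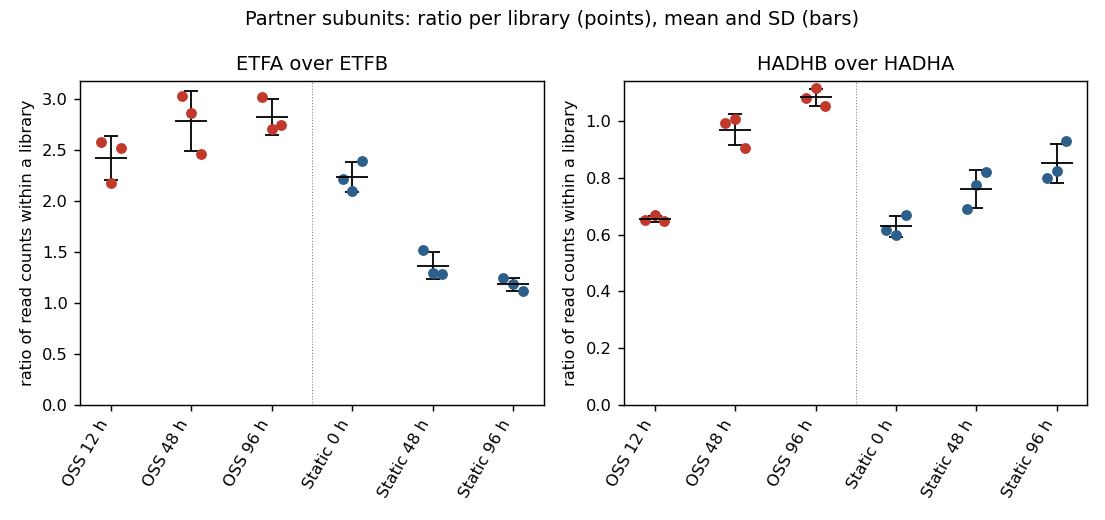
Ratio of read counts of partner subunits within each library (y axis, from 0; points, red OSS and blue Static), with the mean and SD of 3 replicates (black). ETFA over ETFB is 2.17 to 3.03 in the OSS libraries and at most 1.52 in Static libraries at 48 and 96 h, and HADHB over HADHA is higher in OSS than in Static culture at 48 and at 96 h.

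In the peroxisome, 4 of 7 oxidation genes were higher in OSS at 48 h and 5 at 96 h, beside 23.5% and 25.5% of all tested genes, and none was called lower by edgeR. The remaining genes of the group had an unadjusted p above 0.05, which 7040 of all 12840 genes at 48 h and 7453 at 96 h had below it. AMACR, the racemase that prepares branched chains and bile acid precursors for oxidation, had 78.1, 83.2 and 67.1 CPM at OSS 96 h, against 20.7, 22.2 and 21.7 CPM at Static 96 h. At 48 h it had 88.7, 82.9 and 75.0 CPM in OSS, against 24.9, 26.1 and 25.8 CPM in Static culture. The groups did not overlap at either time, with the Static libraries within 2 CPM of each other, and the log2 fold change was 1.82 ± 0.09 at 96 h (edgeR adjusted p = 2.36e-05) and 1.68 ± 0.10 at 48 h (adjusted p = 5.57e-08). EHHADH, the bifunctional hydratase and dehydrogenase for straight chains, had 46.7, 48.3 and 42.3 CPM at OSS 96 h, against 31.9, 34.6 and 36.5 CPM at Static 96 h (0.41 ± 0.08, edgeR adjusted p = 0.00477). At 48 h EHHADH had 56.7, 53.0 and 50.0 CPM in OSS, against 38.3, 36.7 and 39.5 CPM in Static culture (0.48 ± 0.08, edgeR adjusted p = 0.000113). HSD17B4, its counterpart for branched chains, was higher in OSS by a log2 fold change of 0.45 ± 0.06 at 96 h (edgeR adjusted p = 0.00122), and ABCD3, which carries acyl-CoA into the peroxisome, was higher in OSS by a log2 fold change of 0.31 ± 0.08 (adjusted p = 0.0126). ABCD3 also passed at 48 h (0.37 ± 0.12, edgeR adjusted p = 0.019), but not in a fit of those 6 libraries alone or without Static 48 h replicate 1, OSS 48 h replicate 2 or OSS 48 h replicate 3, with adjusted p up to 0.0925.

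Fewer of the other peroxisomal genes passed the test. ACAA1, the peroxisomal thiolase, had a log2 fold change of 0.17 ± 0.09 at 96 h (edgeR adjusted p = 0.16), and SCP2, a thiolase and sterol carrier, one of -0.03 ± 0.05 (adjusted p = 0.675). PHYH, which starts the alpha-oxidation of phytanic acid, had 393, 424 and 384 CPM at OSS 96 h, against 325, 315 and 297 CPM at Static 96 h, and was higher in OSS by a log2 fold change of 0.36 ± 0.06 (edgeR adjusted p = 0.0032). At 48 h its values were 367, 396 and 357 CPM in OSS, against 369.8, 359.5 and 381 CPM in Static culture, with overlapping groups and a log2 fold change of 0.01 ± 0.09.

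Among 4 genes of the peroxisome membrane and its assembly, 3 were higher in OSS at both times, beside 23.5% of all tested genes at 48 h and 25.5% at 96 h. PXMP2, a membrane channel protein, had 48.2, 48.8 and 50.7 CPM at OSS 96 h, against 32.9, 36.9 and 36.0 CPM at Static 96 h (0.48 ± 0.06, edgeR adjusted p = 0.000925). At 48 h PXMP2 had 50.5, 53.8 and 53.8 CPM in OSS, against 31.4, 38.7 and 39.2 CPM in Static culture (0.53 ± 0.09, edgeR adjusted p = 0.000142). The PXMP2 groups did not overlap at either time. PEX6, an ATPase that recycles the import receptor, had 20.8, 30.1 and 24.3 CPM at OSS 96 h, against 14.0, 17.4 and 15.9 CPM at Static 96 h (0.67 ± 0.15, edgeR adjusted p = 0.00783). At 48 h PEX6 had 23.8, 29.5 and 27.2 CPM in OSS, against 16.7, 17.8 and 16.2 CPM in Static culture (0.67 ± 0.17, edgeR adjusted p = 0.0051). OSS libraries of PEX6 were all above the Static ones, with replicate 1 the lowest of each OSS group. PEX19, which inserts proteins into the peroxisome membrane, was higher in OSS by a log2 fold change of 0.45 ± 0.06 at 96 h (edgeR adjusted p = 0.00108). PEX5, the import receptor itself, had 119 ± 5.48 CPM at OSS 96 h and 131 ± 5.58 CPM at Static 96 h, with overlapping groups.

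OSS 12 h was then set against Static 0 h, to see what preceded these differences. Without the replicate block CPT1A was the 1 gene called, beside 6.45% of all tested genes called higher and 6.65% lower. CPT1A had 266, 234 and 221 CPM at OSS 12 h, against 157, 133 and 152 CPM at Static 0 h. The CPT1A groups did not overlap, and the log2 fold change was 0.73 ± 0.10 (edgeR adjusted p = 0.012). Without OSS 12 h replicate 2 the adjusted p was 0.0521. The shares over all genes also rested on single libraries: 0.257% were called higher and 0.888% lower without OSS 12 h replicate 1, 0.0779% and 0.475% without replicate 2, and 2.82% and 3.35% without replicate 3. They were 3.26% and 3.85% without Static 0 h replicate 1, 0.569% and 1.46% without replicate 2, and 6.29% and 6.91% without replicate 3. FABP1 had 90.7, 110.5 and 55.4 CPM at OSS 12 h, against 51.2, 81.3 and 42.0 CPM at Static 0 h, and its groups overlapped (0.59 ± 0.30, edgeR adjusted p = 0.223). Without the block no gene was called lower by edgeR. An unadjusted p under 0.05 was found for 10 of the 32 genes and 4045 of the 12840 tested genes, about the same share. DESeq2 called 3 higher and 2 lower, beside 11.1% and 10.6% of all tested genes. With the replicate number as a block, 11 genes were higher and 7 lower at OSS 12 h, beside 21.6% and 19.7% of all tested genes. They included FABP1 (adjusted p = 0.000559), HADH (0.00339) and AMACR (0.00246) higher, and CROT (0.000718), ACADL (0.00124) and DECR1 (0.00162) lower.

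Each culture condition was next followed up to 48 h. In OSS culture 26 of the 32 genes rose between 12 and 48 h and none fell, whereas 14.3% of all tested genes were called higher and 12.8% lower. Without OSS 48 h replicate 2, 23 of the 32 rose, beside 9.03% and 7.89% of all tested genes. DESeq2 called 27 higher and none lower, beside 16.2% and 15.9% of all tested genes, and 28 of the 32 genes, beside 4990 of all 12840, had an unadjusted p under 0.05. In Static culture 13 rose between 0 and 48 h and 3 fell, beside 14.8% and 15.3% of all tested genes. The median log2 fold change was 0.62 in OSS and 0.19 in Static culture, with 0.01 and 0.02 over all tested genes; without scaling factors these medians were 0.54 and 0.12, with -0.07 and -0.05 over all tested genes. The starting times differ by 12 h, so the changes are given side by side and their difference was not tested.

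The genes fell into several courses. A rise in both culture conditions was called for 12 genes, which is 12 of the 26 in OSS and 12 of the 13 in Static culture. The share of all tested genes called higher in both conditions was not counted. PHYH had 367, 396 and 357 CPM at OSS 48 h, against 169, 196 and 147 CPM at OSS 12 h (1.13 ± 0.10, edgeR adjusted p = 0.000237), and 369.8, 359.5 and 381 CPM at Static 48 h, against 182, 186 and 157 CPM at Static 0 h (1.06 ± 0.08, edgeR adjusted p = 7.22e-05). ACADM had 189.9, 222 and 201 CPM at OSS 48 h, against 108, 125 and 98.3 CPM at OSS 12 h (0.89 ± 0.10, edgeR adjusted p = 0.000533), and 189, 196 and 210.1 CPM at Static 48 h, against 104, 112 and 94.0 CPM at Static 0 h (0.93 ± 0.08, edgeR adjusted p = 0.000154). Neither gene overlapped between the times, and at 48 h the OSS and Static libraries of both genes overlapped. ECHS1, with 122, 106 and 91.3 CPM at OSS 12 h and 106, 99.5 and 85.6 CPM at Static 0 h, rose by 1.00 ± 0.11 in OSS (edgeR adjusted p = 0.000446) and 0.70 ± 0.09 in Static culture (adjusted p = 0.000683) up to the 48 h values given above. PXMP2, with 27.6, 28.2 and 24.8 CPM at OSS 12 h and 20.7, 23.6 and 21.7 CPM at Static 0 h, rose by 0.97 ± 0.06 (edgeR adjusted p = 9.36e-05) in OSS and 0.71 ± 0.10 (adjusted p = 0.00137) in Static culture. ETFB, with 82.3, 90.9 and 70.8 CPM at OSS 12 h and 81.7, 84.7 and 67.1 CPM at Static 0 h, rose by 0.47 ± 0.09 in OSS (edgeR adjusted p = 0.00589) and by 0.89 ± 0.11 in Static culture (adjusted p = 0.000573).

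Another 13 genes passed in OSS culture and not in Static culture. The matching share of all tested genes was not counted either. FABP1 was the largest, with 427, 360.4 and 320.3 CPM at OSS 48 h, against 90.7, 110.5 and 55.4 CPM at OSS 12 h (2.11 ± 0.23, edgeR adjusted p = 0.00044), whereas Static culture had 45.3, 45.7 and 60.6 CPM at 48 h, against 51.2, 81.3 and 42.0 CPM at 0 h, with overlapping groups. DECR1 had 143, 127 and 111 CPM at OSS 48 h, against 68.6, 73.4 and 49.5 CPM at OSS 12 h (0.99 ± 0.15, edgeR adjusted p = 0.00202), and a change of 0.05 ± 0.12 in Static culture. EHHADH rose by 0.72 ± 0.07 in OSS (edgeR adjusted p = 0.000277) and had a change of -0.03 ± 0.08 in Static culture. CPT1A rose by 0.31 ± 0.09 (edgeR adjusted p = 0.0296), ACSL1 by 0.66 ± 0.19 (adjusted p = 0.0308) and ABCD3 by 0.35 ± 0.09 (adjusted p = 0.0235) in OSS culture. The CPT1A call was lost without replicate 2 or 3 of OSS 12 h or of OSS 48 h (adjusted p up to 0.104), and without scaling factors. The ACSL1 call was lost without replicate 2 or 3 of OSS 12 h or replicate 1 or 2 of OSS 48 h (up to 0.106), and that of ABCD3 without replicate 1 or 3 of OSS 12 h or replicate 2 or 3 of OSS 48 h (up to 0.0905).

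AMACR was called in opposite directions. It rose to 88.7, 82.9 and 75.0 CPM at OSS 48 h, against 59.5, 54.7 and 45.0 CPM at OSS 12 h (0.63 ± 0.12, edgeR adjusted p = 0.00467), and fell to 24.9, 26.1 and 25.8 CPM at Static 48 h, against 41.6, 43.8 and 37.9 CPM at Static 0 h (-0.70 ± 0.08, edgeR adjusted p = 0.000387). ACADL rose in Static culture, by 0.51 ± 0.11 (edgeR adjusted p = 0.00781), with a change of 0.10 ± 0.09 in OSS culture. CROT fell in Static culture by 0.61 ± 0.14 on the log2 scale (edgeR adjusted p = 0.0131) and PEX6 fell by 0.54 ± 0.14 (adjusted p = 0.0191), with changes of -0.12 ± 0.10 and 0.02 ± 0.18 in OSS culture. In Static culture 5 calls were lost when 1 library was left out, with adjusted p up to 0.104. These were ACAA1 without Static 0 h replicate 3, ACADS without Static 0 h replicate 1 or Static 48 h replicate 3, and PEX6 without Static 0 h replicate 2 or 3 or Static 48 h replicate 3. ETFDH lost its call without Static 0 h replicate 1 or 3 or Static 48 h replicate 2 or 3, and HADHB without replicate 2 or 3 of either time, without scaling factors or without the filter on low counts. With the replicate block ACADVL also rose in OSS (adjusted p = 0.0001) and in Static culture (0.0127), HADHA in OSS (0.00995) and CPT2 in Static culture (0.0439).

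**Figure D5:**
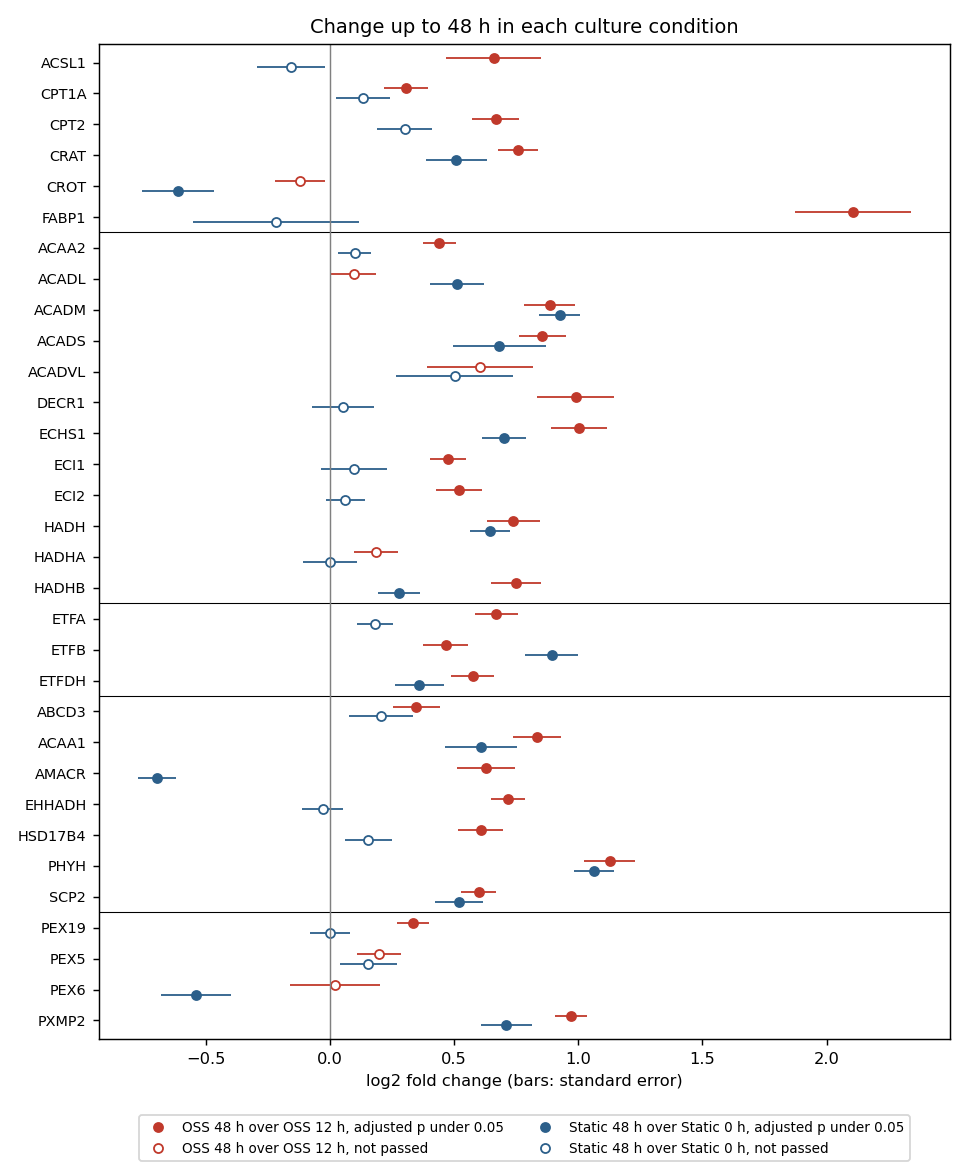
Log2 fold change of each of the 32 genes up to 48 h, for OSS 48 h over OSS 12 h (red) and Static 48 h over Static 0 h (blue), with bars for the standard error. Filled points have an edgeR adjusted p under 0.05. Red points lie right of 0 for 31 of the 32 genes, and AMACR has a filled point on either side of 0.

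After 48 h none of these genes passed the test in fits without the replicate block, whereas 6 fell in OSS culture with it, as named below. For OSS 96 h over OSS 48 h, 0.678% of all tested genes were called higher and 0.467% lower by edgeR, and at most 0.101% and 0.0156% when any 1 library was left out. For Static 96 h over Static 48 h the shares were 0% and 0.0389%, beside 1749 genes with an unadjusted p under 0.05 and 122 (0.950%) higher and 164 (1.28%) lower by DESeq2. Of the 32 genes, 6 in OSS culture, a share near that over all genes (2546 of 12840), and 8 in Static culture had an unadjusted p under 0.05, and DESeq2 called 0 in OSS culture, beside 5.24% of all tested genes higher and 3.36% lower, and 1, FABP1, in Static culture. FABP1 had 11.7, 20.6 and 30.8 CPM at Static 96 h, against 45.3, 45.7 and 60.6 CPM at Static 48 h, without overlap (-1.27 ± 0.34, edgeR adjusted p = 0.246). In OSS culture it had 221, 269.5 and 286 CPM at 96 h, against 427, 360.4 and 320.3 CPM at 48 h, also without overlap (-0.51 ± 0.22, edgeR adjusted p = 0.247). Most changes were below 0: 27 of the 32 in OSS, with a median of -0.10, and 25 in Static culture, with a median of -0.13. Over all 12840 tested genes, 6596 changes were below 0 in OSS (median -0.007) and 6510 in Static culture (median -0.004). With the replicate number as a block, 6 genes fell in OSS culture, beside 10.4% of all tested genes higher and 8.81% lower: ACSL1 (adjusted p = 0.00441), ETFA (0.0157), CROT (0.0163), EHHADH (0.0199), PEX19 (0.037) and CPT2 (0.0471). The change in OSS culture minus that in Static culture was called for none of the 32 genes by edgeR. Without the block 0% of all tested genes were called in either direction. An unadjusted p under 0.05 was found there for PHYH alone among the 32 and for 1580 of all tested genes. DESeq2 called 0 of the 32 genes there, and 75 genes (0.584%) higher and 150 (1.17%) lower in all.

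Per kilobase of the deposited gene length, the 32 levels spanned a wide range at OSS 96 h. FABP1 and HADH had the highest values, 732 and 688 CPM per kb. Their order is uncertain, since the deposited length of FABP1, 354 bases, is the shortest of the 32. HADHB followed with 458, ABCD3 with 358 and HADHA with 261, and ACADS and PEX6 were lowest with 6.87 and 6.82 CPM per kb. At Static 96 h HADH led with 498 CPM per kb, before HADHB with 345, ABCD3 with 287 and HADHA with 251. How the deposited lengths were made is not given in the sources used here. Reads were aligned to a Monodelphis domestica genome with base mismatches allowed. Whether the genome of the OK line differs from it was not examined here. How many reads of each gene failed to align is not known, which makes any order between genes less certain.

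Further genes of the same pathways were taken from lists by function, and their counts stand beside the shares over all tested genes given above: 23.5% higher and 24.5% lower at 48 h, and 25.5% higher and 26.2% lower at 96 h. Of 14 regulators, 13 were tested. At 48 h, 3 were higher in OSS, a share near that over all genes, and 1 was lower, with a median log2 fold change of -0.02. At 96 h, 6 were higher and 1 was lower, with a median of 0.22. PPARA, the fatty acid receptor of oxidative tissues, had 53.7 ± 4.12 CPM at OSS 96 h, against 37.7 ± 1.57 CPM at Static 96 h (log2 fold change 0.51 ± 0.07, edgeR adjusted p = 0.00131). PPARG, its relative known from fat storage, had 53.4 ± 4.51 CPM, against 25.4 ± 2.47 CPM (1.07 ± 0.10, edgeR adjusted p = 0.00018), and RXRA, their partner receptor, 11.2 ± 0.657 CPM, against 6.56 ± 0.147 CPM (0.77 ± 0.09, adjusted p = 0.000451). SIRT3, a mitochondrial deacetylase, was lower in OSS, with a log2 fold change of -0.56 ± 0.12 at 96 h (edgeR adjusted p = 0.00614). PPARGC1A, a coactivator of mitochondrial genes, had 14.6 ± 4.30 CPM at OSS 96 h and 10.9 ± 0.225 CPM at Static 96 h and was not called (0.42 ± 0.20, edgeR adjusted p = 0.126).

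Of 27 other uptake, activation and carnitine genes listed, 14 were tested. They gave 5 higher (beside 23.5% of all tested genes) and 1 lower (beside 24.5%) at 48 h, and 6 higher (beside 25.5%) and 3 lower (beside 26.2%) at 96 h, and the median log2 fold change was 0.12 at both times. SLC25A20, which exchanges acylcarnitine for carnitine across the inner membrane, had 102 ± 13.3 CPM at OSS 96 h, against 71.6 ± 0.887 CPM at Static 96 h (0.51 ± 0.09, edgeR adjusted p = 0.00294). ACSL5, another acyl-CoA synthetase, was higher in OSS by a log2 fold change of 0.92 ± 0.21 (edgeR adjusted p = 0.00874), and SLC27A1, a fatty acid transport protein, was lower in OSS, with a log2 fold change of -0.83 ± 0.06 (adjusted p = 7.12e-05). ACSS1, the mitochondrial acetyl-CoA synthetase, was lower in OSS, with a log2 fold change of -0.80 ± 0.17 (edgeR adjusted p = 0.00694), and ACOT13, a thioesterase, was higher in OSS by a log2 fold change of 0.64 ± 0.07 (adjusted p = 0.000305).

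Among 17 tested genes for other mitochondrial acyl-CoA enzymes and ketone bodies, 8 were higher and 2 lower at 48 h (beside 23.5% and 24.5% of all tested genes), and 10 were higher and 1 lower at 96 h (beside 25.5% and 26.2%). The median log2 fold change was 0.30 at 48 h and 0.34 at 96 h. IVD had 109 ± 11.6 CPM at OSS 96 h, against 45.3 ± 4.63 CPM at Static 96 h (1.27 ± 0.11, edgeR adjusted p = 0.000127). ACADSB was higher in OSS by a log2 fold change of 0.83 ± 0.07 (edgeR adjusted p = 0.000146), ACAT1 by 0.68 ± 0.10 (adjusted p = 0.00139) and ACAD8 by 0.57 ± 0.07 (adjusted p = 0.000469). These 4 enzymes are best known from the breakdown of branched-chain amino acids. ECH1, a dienoyl-CoA isomerase, was the 1 gene lower at 96 h (log2 fold change -0.49 ± 0.07, edgeR adjusted p = 0.00108).

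Other peroxisomal enzymes were called in both directions, with 10 higher and 2 lower of 24 at 48 h (beside 23.5% and 24.5% of all tested genes) and 11 higher and 5 lower at 96 h (beside 25.5% and 26.2%). The median log2 fold change was 0.31 at 48 h and 0.13 at 96 h. CAT, the catalase that removes hydrogen peroxide, had 122 ± 4.88 CPM at OSS 96 h, against 84.1 ± 2.76 CPM at Static 96 h (log2 fold change 0.53 ± 0.06, edgeR adjusted p = 0.000359). HAO1, a hydroxyacid oxidase, was higher in OSS by a log2 fold change of 2.56 ± 0.35 (edgeR adjusted p = 0.000943) at a low level of 2.09 ± 0.667 CPM, against 0.354 ± 0.107 CPM. FAR1, which makes fatty alcohols for ether lipids, was higher in OSS by a log2 fold change of 1.06 ± 0.08 (edgeR adjusted p = 8.59e-05), DECR2, the peroxisomal counterpart of DECR1, by 0.99 ± 0.18 (adjusted p = 0.00323), and ABCD4, a relative of ABCD3, by 0.90 ± 0.09 (adjusted p = 0.000212).

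Of 11 other peroxins tested, 2 were higher and 1 lower at 48 h (beside 23.5% and 24.5% of all tested genes), with a median log2 fold change of -0.07. At 96 h, 0 were higher and 3 were lower by edgeR (beside 25.5% and 26.2%), a share of lower genes near that over all genes, with a median of -0.12 and 5 genes at an unadjusted p under 0.05. PEX14, part of the import channel, had a log2 fold change of -0.73 ± 0.08 (edgeR adjusted p = 0.000434), PEX11G, a relative of PEX11A, one of -0.32 ± 0.10 (adjusted p = 0.0357), and PEX3, an anchor for membrane assembly, one of -0.29 ± 0.07 (adjusted p = 0.0105). Of a list of 10 further PPAR targets known from fasting, 5 passed the filter and were tested, and these 5 were higher at 96 h and 4 of them at 48 h (beside 25.5% and 23.5% of all tested genes). UCP2, a mitochondrial carrier, had 11.5 ± 1.56 CPM at OSS 96 h, against 2.68 ± 0.256 CPM at Static 96 h (2.09 ± 0.14, edgeR adjusted p = 6.61e-05). PLIN2, which coats lipid droplets, had 125 ± 11.1 CPM, against 55.9 ± 5.96 CPM (1.16 ± 0.10, edgeR adjusted p = 0.000136). CYP4A11, a fatty acid hydroxylase, differed by 3.47 ± 0.21 (edgeR adjusted p = 4.46e-05), and VNN1, a pantetheinase, by 1.33 ± 0.36 (adjusted p = 0.0169).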

How the data were processed

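RNA of OK cells was measured in 18 libraries (3 per condition). According to the labels and the study's methods, the authors depleted ribosomal RNA, prepared stranded TruSeq libraries and sequenced 75 bp paired reads. Trimming used cutadapt, alignment TopHat2 with the Monodelphis domestica genome MonDom5, allowing base mismatches, and counting featureCounts (Subread). The deposited values are raw read counts for 23899 genes, with a gene length; versions, annotation release and strand setting are not given in the sources used here. Totals were 40154553 to 79745362 counts.

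Genes above 1 CPM in at least 6 libraries were tested (12840; the other 11059 were not) with edgeR 4.0.16 in R 4.3.3, with TMM factors, trended dispersions and quasi-likelihood F-tests. The OSS course and the Static course were fitted on their 9 libraries each, OSS 12 h over Static 0 h and OSS 96 h over Static 96 h on their 6, and OSS 48 h over Static 48 h and the difference of late changes on all 18. The p-values were adjusted over the 12840 genes, and 0.05 was the threshold. The SE of a log2 fold change is its size over the root of the F statistic. Scripts were tested on simulated data. Replicates differed beyond counting error (smallest chi-square per gene 25.1).

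Replicate numbers come from the labels. Libraries of equal number deviated together in all 45 pairs of conditions (correlation 0.28 to 0.79 over genes). For 90 pairs of unequal number the correlation was -0.69 to 0.45. The numbers were therefore taken to pair the samples. The main calls come from fits that leave out this pairing, and a fit with the number as a block is given where it changes a call. Other alternatives were RLE factors, no scaling, DESeq2 1.42.0, no filter, other sets of libraries in the fit, the deposited table with 1 entry per gene name and leaving out each library. Smaller deposited tables with copied counts and averages were not used.

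The genes and lists were chosen with earlier results of these data known. Values in each library are given for genes called in OSS over Static culture with the largest log2 fold changes (up to 8 per time), for the 4 largest of each course step and for FABP1, CPT1A, ACADM, HADHA and EHHADH; of the further lists, up to 4 called genes per list and comparison and some fixed genes are named, of which a few are not reported here. HADHB, with its values in each library, and ECH1 were added after values were seen. All 32 symbols were found in the RefSeq table of mMonDom1, which was used for gene order only.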

Additional observations from a re-analysis of the deposited data

Results flagged for a closer look

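For 4 of the genes called in OSS over Static culture, every OSS library lay beyond all 3 Static 0 h libraries on one side and every Static library of the same time beyond all 3 on the other side. This pattern around Static 0 h was not itself tested, and being called was part of the choice of these genes. The difference given below is that of OSS over Static culture, from the same edgeR test. For FABP1 at 96 h it was 3.61 on the log2 scale (adjusted p = 0.000196), with all 3 OSS libraries above and all 3 Static libraries below the Static 0 h libraries, whose mean was 58.2 CPM. For ACSL1 at 96 h it was 0.85 (edgeR adjusted p = 0.00159), in the same directions around Static 0 h libraries with a mean of 221 CPM. For ACADL at 96 h it was -1.02 (edgeR adjusted p = 3.48e-05), with the OSS libraries below and the Static libraries above the Static 0 h libraries (mean 139 CPM). For AMACR the OSS libraries were above and the Static libraries below those of Static 0 h (mean 41.1 CPM) at both times, with 1.68 at 48 h (edgeR adjusted p = 5.57e-08) and 1.82 at 96 h (adjusted p = 2.36e-05). These 5 results share the 3 Static 0 h libraries as their starting point. How many of all tested genes show the same pattern was not counted.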

How the results depend on the processing

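No direction of a called gene was reversed under any alternative. For OSS 12 h over Static 0 h, the count of 1 called gene became 5 with DESeq2, 11 with all 18 libraries in the fit (beside 11.3% of all tested genes called higher and 12.9% lower) and 18 with the replicate block, and lay between 0 and 4 when 1 library was left out. It moved without OSS 12 h replicate 2 (0 calls, beside 71 over all genes), OSS 12 h replicate 3 (2 calls, beside 792) and Static 0 h replicate 3 (4 calls, beside 1695), whereas all libraries gave 1682 calls over all genes. For OSS 96 h over OSS 48 h, the count of 0 became 6 with the replicate block, and for Static 96 h over Static 48 h, the count of 0 became 1 with DESeq2. Counts of the other comparisons stayed within 1.5 times: 19 to 22 for OSS over Static culture at 48 h, 22 to 25 at 96 h, 23 to 28 for OSS 48 h over OSS 12 h and 12 to 19 for Static 48 h over Static 0 h. The replicate block lost no called gene. Without scaling factors, 36.0% of all calls were higher in OSS 48 h over OSS 12 h, against 52.8% with TMM, and 37.2% in Static 48 h over Static 0 h, against 49.2%. With 3 pooled replicates per condition, fits without the replicate block may miss changes between 48 and 96 h, and not only small ones. For OSS 96 h over OSS 48 h, 10.4% of all tested genes were higher and 8.81% lower with the block, against 0.678% and 0.467% without it. In Static culture the block gave 0.164% and 0.639%, and changes there may still be missed. FABP1 in Static culture was not called at a log2 fold change of -1.27 (edgeR adjusted p = 0.246).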
